A study of Mus musculus with 12 samples.

Results

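The 10 genes described here control Wnt signalling outside the cell. They are the secreted frizzled-related proteins Sfrp1, Sfrp2, Sfrp4 and Frzb, the Wnt inhibitory factor Wif1, the Dickkopf genes Dkk1, Dkk2 and Dkk3, and the ligands Wnt2 and Wnt5a. They were taken by mouse symbol from the 52636 Ensembl gene identifiers of the count table, and all 10 were found, with 1 identifier each. The libraries came from joints of the paws of 12 individual mice, in 3 groups of 4. Naive mice had no disease and received anti-gp120 (aGP120), the negative control antibody. The control arthritis mice received K/BxN serum, which transfers arthritis through antibodies, together with anti-gp120. The anti-SIRPa mice received the same serum and 6F2, an agonistic antibody to the inhibitory myeloid receptor SIRPa, and joints of the serum-treated mice were taken 7 days after transfer. The labels name no strain, age, sex or dose. Serum transfer models the effector phase of antibody-driven arthritis without an immune response started in the animal itself.

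Wnt ligands are secreted lipid-modified proteins that bind Frizzled receptors and, in the beta-catenin branch, the co-receptors Lrp5 and Lrp6. Sfrp proteins and Wif1 bind Wnt ligands in the extracellular space, whereas Dkk1 and Dkk2 bind Lrp5 and Lrp6. In joints the pathway is known for its part in bone formation and in cartilage maintenance.

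All 10 genes are protein-coding in GENCODE M21 on GRCm38. Sfrp1 lies on chromosome 8 from 23411502 to 23449632, Sfrp2 on chromosome 3 from 83766321 to 83774316, and Wnt2 on chromosome 6 from 17988940 to 18030585. Exons of Sfrp2 overlap those of the antisense gene Gm26771, which had 0 to 5 counts per library, and exons of Wnt5a overlap those of Gm2670, which had 0 to 4 counts except for 32 and 18 in controls 2 and 4. RefSeq (GRCm38.p6) gave a promoter for 6 of the 10 genes. Of the 250 bases before the RefSeq start, the bases that lie before the GENCODE gene are printed for Sfrp2 and Wnt2, a pair that differed between naive and control arthritis joints in opposite directions, and for Wif1, whose anti-SIRPa and control mice did not overlap. That left 250, 110 and 206 bases. Sfrp2 is shown from chr3:83766071-83766320 on the plus strand, Wnt2 from chr6:18030586-18030695 on the minus strand, and Wif1 from chr10:121033754-121033959 on the plus strand. Capitals mark CG dinucleotides, a choice made after the motif search described next.
Sfrp2: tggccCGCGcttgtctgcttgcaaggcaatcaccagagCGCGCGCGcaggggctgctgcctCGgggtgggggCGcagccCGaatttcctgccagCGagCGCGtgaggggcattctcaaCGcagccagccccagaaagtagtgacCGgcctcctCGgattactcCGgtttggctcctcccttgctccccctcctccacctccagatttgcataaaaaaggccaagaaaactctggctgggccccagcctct
Wnt2: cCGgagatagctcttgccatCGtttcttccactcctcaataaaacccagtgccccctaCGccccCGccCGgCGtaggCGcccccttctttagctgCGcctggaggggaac
Wif1: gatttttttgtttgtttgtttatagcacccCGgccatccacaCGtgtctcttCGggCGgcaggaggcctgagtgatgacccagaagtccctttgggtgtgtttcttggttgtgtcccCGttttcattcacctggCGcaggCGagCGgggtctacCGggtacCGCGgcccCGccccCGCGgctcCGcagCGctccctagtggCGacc

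The full windows of 250 bases held 16, 20 and 21 CG dinucleotides in Sfrp2, Wnt2 and Wif1, against a median of 6 over the 32851 promoters of the table. At least 16 were found in 25.4% of promoters, at least 20 in 17.9% and at least 21 in 16.3%. Both strands were searched for 4 motifs: CTTTGA, the core of TCF/LEF sites, TGANTCA of AP-1, GGGNNTTCC of NF-kB, and TATAAA. The Sfrp2 and Wnt2 windows held none of the 4, and the Wif1 window held 1 TATAAA, on the minus strand. CTTTGA was found once in the Frzb window and at 2 positions in that of Dkk1, against 13.8% of all promoters with a match. The Dkk2 window held 1 match to GGGNNTTCC (4.98% of promoters) and 1 to TATAAA (12.4%), Dkk1 held 1 TATAAA, and no AP-1 match (6.75%) was found in any of the 6. No 2 matches overlapped.

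Total counts ran from 6893969 in control 2 to 17597920 in anti-SIRPa 1. In controls 2, 3 and 4, 8 skeletal muscle markers summed to 29391, 35661 and 50855 CPM, against 69076 to 97787 in naive libraries and 78626 in control 1. The anti-SIRPa libraries had 50813 to 78516 CPM, with the lowest value, in anti-SIRPa 4, just below that of control 4. The lincRNA Gm26917 stood at 30545 to 74981 CPM in the controls, against 18161 to 25262 in naive and 17340 to 22139 in anti-SIRPa libraries. Smell and taste receptor genes summed to 528 and 227 CPM in controls 2 and 4, against 10.1 to 29.5 in the other libraries. Epidermal markers were at 3.60 and 3.16 CPM in naive 4 and anti-SIRPa 2 and at 262 to 16168 CPM elsewhere. In whole joint tissue, a change in the number of cells of a type and a change of RNA per cell cannot be told apart. All 5 lining fibroblast markers, all 6 sublining ones and 8 of 9 chondrocyte markers passed the filter on low counts, and Matn3, a cartilage matrix gene, did not.

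In joints with arthritis and control antibody, Sfrp1 and Sfrp2 were higher than in naive joints and Wnt2 was lower. The other members tested did not pass the threshold. Of the 10 members, 9 passed the filter on low counts and were tested. Of these, 3 were called by edgeR at an adjusted p under 0.05, against 10.3% of the 16674 genes tested, 2 of them higher (5.87% of all genes) and 1 lower (4.45%). The median log2 fold change of the 9 was 0.06, beside 0.03 over all genes tested.

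Sfrp1, which binds Wnt ligands through a domain like that of Frizzled receptors, stood at 21.7, 14.2, 13.9 and 7.36 CPM (reads per 1000000, TMM-scaled) in naive mice 1 to 4. In the controls it stood at 17.9, 130, 126 and 76.7 CPM, and in the anti-SIRPa mice at 10.3, 9.98, 14.0 and 24.01. Controls 2, 3 and 4 lay above every other library, while control 1 lay within the naive range, so that naive and control groups overlapped. The rise from naive to control arthritis was 2.61 ± 0.59 (log2, SE; edgeR adjusted p = 0.0261), from 14.3 ± 5.88 to 87.8 ± 52.6 CPM (SD, n = 4 per group). Leaving out any of naive 2, 3, 4 or control 2, 3, 4 ended the call, at adjusted p values of 0.0541 to 0.0768 in edgeR.

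Sfrp2, a related Wnt-binding protein made by fibroblasts, stood at 18.1, 11.9, 9.21 and 2.84 CPM in naive mice. The controls had 10.5, 103, 81.3 and 105 CPM and the anti-SIRPa mice 5.05, 2.96, 11.98 and 8.61. Again control 1 lay among the naive libraries and the other controls far above them. The rise was 2.83 ± 0.77 (log2, SE; edgeR adjusted p = 0.0466), from 10.5 ± 6.32 to 74.9 ± 44.2 CPM. It was called in 1 of the 12 fits that left out 1 mouse, the one without control 1; without any of the others edgeR adjusted p ran from 0.0570 to 0.110.

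Wnt2, a ligand that can signal through beta-catenin, moved the other way. It had 30, 48, 50 and 30 counts in the naive libraries, or 1.83, 3.37, 3.52 and 2.299 CPM. The controls had 12, 2, 8 and 12 counts, or 0.992, 0.263, 0.604 and 0.867 CPM, with control 2 below the floor of 3 counts, which is 0.394 CPM there. All 4 controls, control 1 included, lay below all 4 naive mice. Among all genes tested, 12.5% had groups that did not overlap in this comparison. Wnt2 fell by 1.96 ± 0.45 (log2, SE; edgeR adjusted p = 0.0204), from 2.75 ± 0.822 to 0.681 ± 0.323 CPM. Leaving out any of naive 2, naive 3, control 2 or control 3 ended the call, at adjusted p values of 0.0504 to 0.0657 in edgeR.

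**Figure D1:**
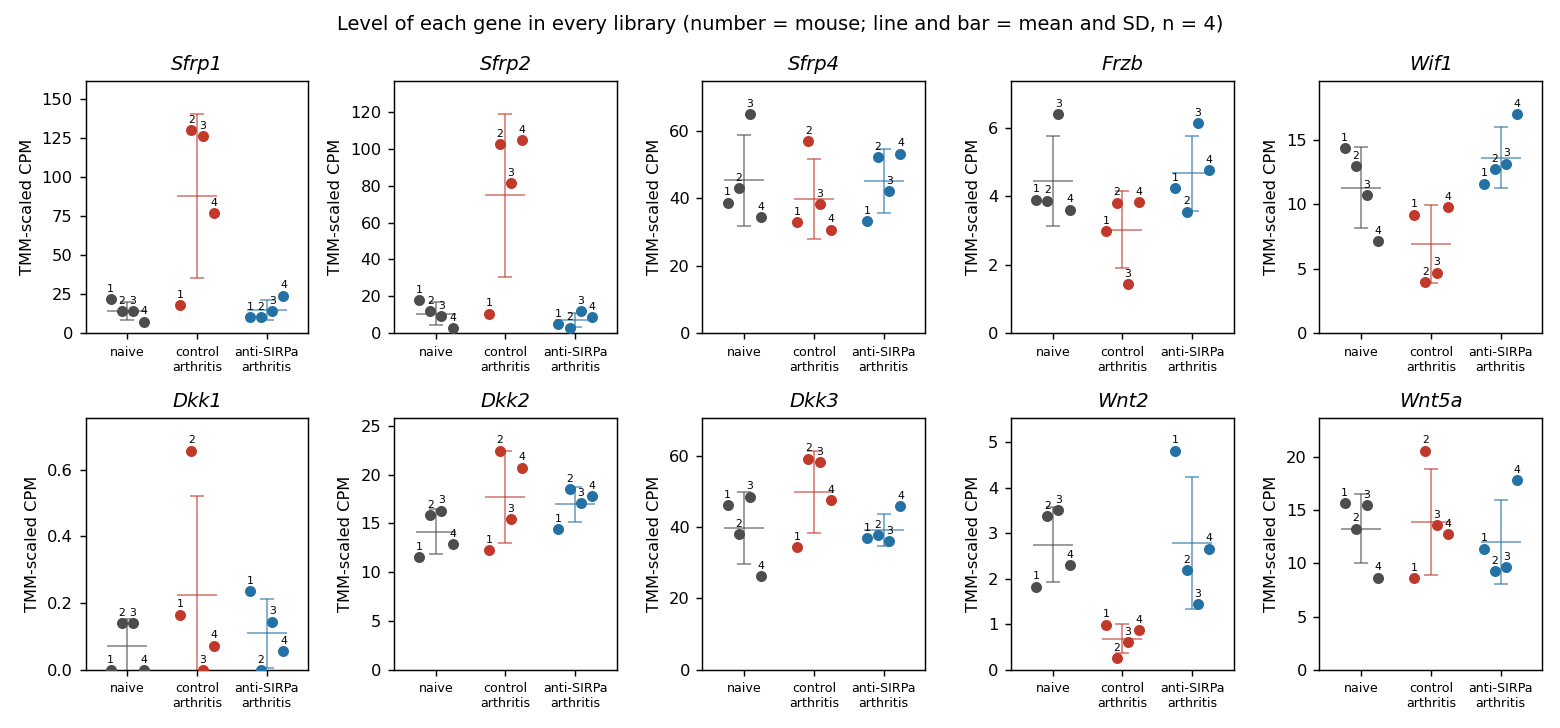
Level of each of the 10 genes in TMM-scaled CPM on the vertical axis, by group on the horizontal axis; points are libraries numbered by mouse, lines and bars the mean and SD of 4 mice (bars of Dkk1 are cut at 0). Controls 2, 3 and 4 stand above all other libraries for Sfrp1 and Sfrp2, control 1 does not, and all 4 controls lie below every naive and anti-SIRPa library for Wnt2.

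Of the other Wnt-binding antagonists, Sfrp4 stood at 34.5 to 65.0 CPM in naive, 30.7 to 57.0 in control and 33.2 to 53.2 in anti-SIRPa joints. Its difference between control arthritis and naive joints was -0.19 ± 0.24 (95% interval -0.70 to 0.32). Frzb, also a secreted Frizzled-related protein, had 3.60 to 6.40, 1.44 to 3.83 and 3.54 to 6.14 CPM in the same order. Its difference was -0.57 ± 0.32 (interval -1.25 to 0.12). The ranges of the 3 groups overlapped for both genes.

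Wif1, a secreted protein of its own family, stood at 14.3, 12.9, 10.7 and 7.13 CPM in naive mice and at 9.18, 3.94, 4.68 and 9.75 in controls. The anti-SIRPa mice had 11.6, 12.7, 13.1 and 17.0 CPM. Naive and control groups overlapped, and the difference between them was -0.70 ± 0.29 (edgeR adjusted p = 0.137, and 0.0498 without control 1). Every anti-SIRPa mouse lay above every control, as in 10% of all genes tested. That difference was 0.97 ± 0.29 and did not pass (edgeR adjusted p = 0.0734), and it passed in 3 of 24 alternatives, with adjusted p from 0.0172 (DESeq2) to 0.271 (edgeR without controls 2 and 4).

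Among the Dickkopf genes, Dkk1, an inhibitor of the Lrp co-receptors, was nearly absent from the counts. It had 0 to 2 counts in naive, 0 to 5 in control and 0 to 4 in anti-SIRPa libraries and was not tested. A count of 0 allows up to 0.170 to 0.394 CPM, depending on the library. Dkk2 stood at 11.6 to 16.3 CPM in naive and 12.2 to 22.5 in control joints, a difference of 0.32 ± 0.19 (interval -0.09 to 0.73). Dkk3, a divergent member of the family that is not an established Lrp inhibitor, stood at 26.2 to 48.6 and 34.3 to 59.2 CPM, a difference of 0.32 ± 0.20 (interval -0.11 to 0.75). Wnt5a, a ligand mostly of the branch that does not use beta-catenin, had 8.66 to 15.7 CPM in naive, 8.60 to 20.6 in control and 9.27 to 17.8 in anti-SIRPa joints. It differed between control and naive joints by 0.06 ± 0.28 (interval -0.55 to 0.66).

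With anti-SIRPa in arthritis, Sfrp1 was lower and Wnt2 higher than with the control antibody. Of the 9 members tested 2 were called, against 3.29% of all genes, 1 lower (1.7% of all genes) and 1 higher (1.59%). The median of the 9 was -0.06, beside -0.03 over all genes. This comparison shares the control libraries with the first, so that its values are not independent of those above.

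Sfrp1 fell by 2.59 ± 0.59 (log2, SE; edgeR adjusted p = 0.0472), from 87.8 ± 52.6 to 14.6 ± 6.54 CPM, and the groups overlapped through control 1. The call held in 2 of the 12 fits that left out 1 mouse, those without control 1 or anti-SIRPa 4, and was lost in the other 10 (edgeR adjusted p from 0.0526 to 0.136). Wnt2 rose by 1.98 ± 0.45 (edgeR adjusted p = 0.0378), from 0.681 ± 0.323 to 2.78 ± 1.45 CPM, with 82, 34, 20 and 47 counts in anti-SIRPa mice 1 to 4. All 4 of these mice lay above all 4 controls. Among all genes tested, 10% had groups that did not overlap in this comparison. The call was lost without naive 1, 2 or 3, control 2, 3 or 4, or anti-SIRPa 1 or 2 (edgeR adjusted p from 0.0519 to 0.117).

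Sfrp2 had the largest estimated difference of the 9 members and missed the threshold narrowly: -3.39 ± 0.79 (edgeR adjusted p = 0.0505), from 74.9 ± 44.2 to 7.15 ± 3.98 CPM. It passed in 5 of 24 alternatives and in 2 of the 12 fits that left out 1 mouse, with adjusted p from 0.000267 (DESeq2) to 0.295 (edgeR without controls 2 and 4). The differences of the remaining members were 0.64 ± 0.32 for Frzb, 0.19 ± 0.24 for Sfrp4, -0.34 ± 0.20 for Dkk3, -0.06 ± 0.19 for Dkk2 and -0.20 ± 0.28 for Wnt5a. None of these 5 passed in edgeR.

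When both control mice with high receptor-gene signal, controls 2 and 4, were left out, edgeR called none of the members in either comparison. Over all genes it then called 1 against naive and 0 between the antibodies, so that the loss was not particular to the members. Of the remaining controls, control 3 had 126 CPM of Sfrp1 and 81.3 of Sfrp2. In that fit Wnt2 stood at -1.80 against naive (adjusted p = 0.158) and Sfrp1 at 2.302 (adjusted p = 0.190). Without naive 4 and anti-SIRPa 2, the libraries low in epidermal RNA, no member was called either, with Wnt2 at -2.04 (adjusted p = 0.0700) and Sfrp1 at 2.39 (adjusted p = 0.0974) against naive. Over all genes edgeR then called 66 higher and 100 lower against naive, and 0 between the antibodies.

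Between anti-SIRPa and naive joints no member was called, and edgeR called 0 of 16674 genes. An unadjusted p under 0.05 was found for 675 genes, below the 834 that this threshold gives with no difference. The number depended on the fit. In edgeR it ran from 461 without naive 4 and anti-SIRPa 2 to 1324 without anti-SIRPa 4, and was 1220 with only these 2 groups. DESeq2 called 20 genes, none of them members, and limma-voom none. No member had an unadjusted p under 0.05, and 0 of the 9 had groups that did not overlap, beside 4.89% of all genes. The intervals show what could have been missed: Wnt2 differed by 0.02 (95% interval -0.87 to 0.90), Sfrp1 by 0.03 (-1.24 to 1.30), Sfrp2 by -0.56 (-2.23 to 1.11) and Wif1 by 0.27 (-0.35 to 0.89).

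**Figure D2:**
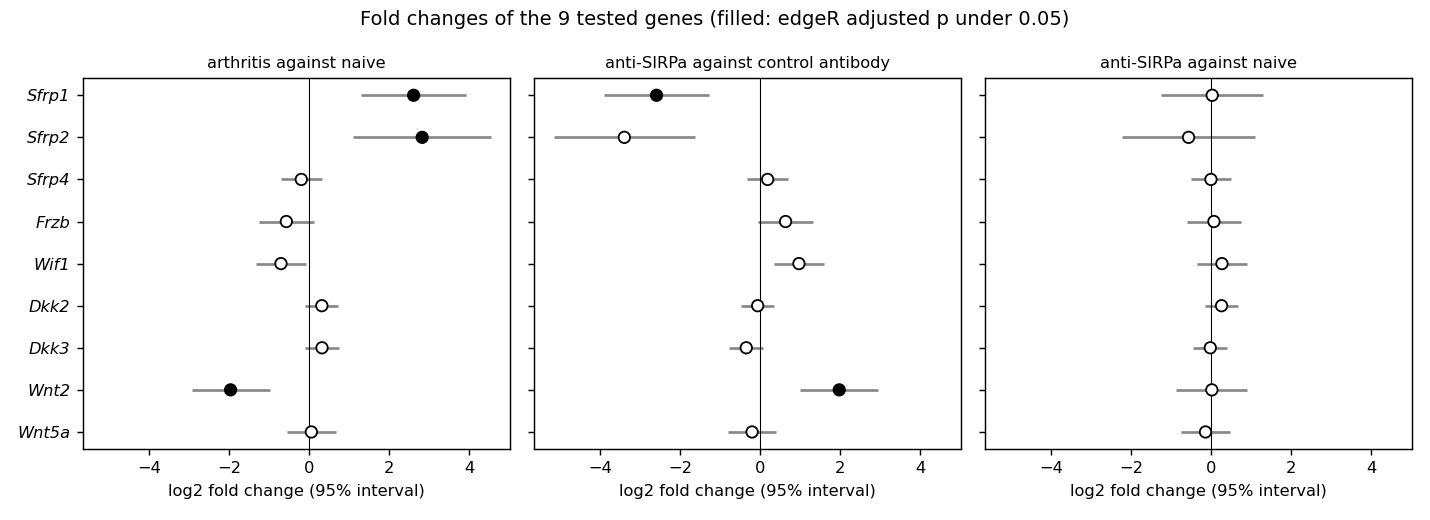
Log2 fold change (horizontal axis) with its 95% interval for the 9 tested genes in each of the 3 comparisons; filled points passed an edgeR adjusted p of 0.05. Sfrp1 and Sfrp2 lie to the right of 0 and Wnt2 to the left in arthritis against naive joints, the signs are the opposite for anti-SIRPa against control antibody, and all intervals in anti-SIRPa against naive joints include 0.

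Scaled by exon length, the order of the members differed between the groups. In naive joints Dkk3 (11.8 ± 3.01 CPM per kb) and Sfrp4 (10.8 ± 3.25) led, followed by Sfrp2 (4.88 ± 2.93), Wif1 (4.64 ± 1.29), Dkk2 (3.82 ± 0.622) and Sfrp1 (3.27 ± 1.34). Wnt5a (1.70 ± 0.417), Frzb (1.37 ± 0.405), Wnt2 (1.22 ± 0.365) and Dkk1 (0.0290 ± 0.0334) came last. All neighbours in this order overlapped in range over the 4 mice, except Wnt2 and Dkk1.

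In control arthritis Sfrp2 (34.8 ± 20.5 CPM per kb) and Sfrp1 (20.1 ± 12.03) came first, before Dkk3 (14.8 ± 3.46) and Sfrp4 (9.51 ± 2.86). Sfrp2 lay above Sfrp1 in 4 of 4 mice, and Sfrp1 above Dkk3 in 3 of 4. After them came Dkk2 (4.78), Wif1 (2.84), Wnt5a (1.78), Frzb (0.931), Wnt2 (0.302) and Dkk1 (0.0921). Ranges did not overlap between Sfrp4 and Dkk2 or between Frzb and Wnt2. In anti-SIRPa joints Dkk3 (11.7 ± 1.36) and Sfrp4 (10.8 ± 2.26) were first again, above Wif1 (5.602 ± 0.969) without overlap. Sfrp1 (3.34 ± 1.496) and Sfrp2 (3.32 ± 1.85) followed Dkk2 (4.58 ± 0.487).

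Sfrp1 and Sfrp2 together held 10.5% to 27.0% of the summed length-scaled level of the 10 genes in naive libraries and 8.96% to 20.2% in anti-SIRPa libraries. In controls 2, 3 and 4 they held 64.2%, 65.5% and 65.9%, and in control 1 24.4%. The sum itself was 101 to 121 CPM per kb in controls 2, 3 and 4, against 36.7 in control 1, 28.7 to 51.9 in naive and 37.3 to 52.7 in anti-SIRPa joints.

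**Figure D3:**
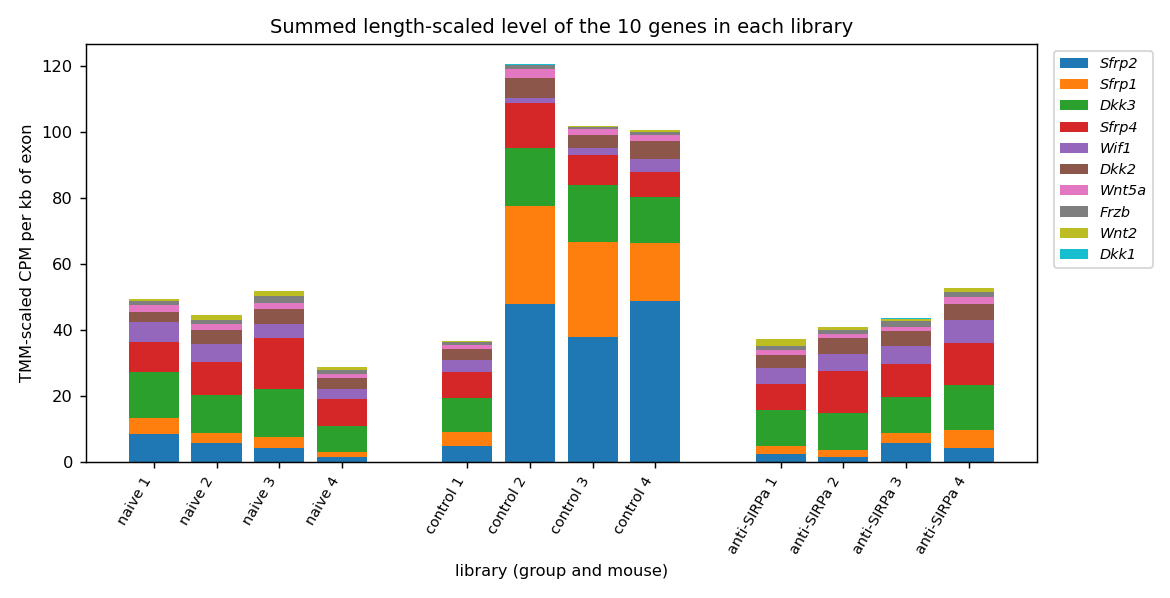
Summed level of the 10 genes in CPM per kb of exon (vertical axis) in each of the 12 libraries (horizontal axis), with 1 colour per gene. Sfrp1 and Sfrp2 fill 64.2% to 65.9% of the bars of controls 2, 3 and 4 and 24.4% of that of control 1.

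By log2 CPM over the 12 libraries, Sfrp1 and Sfrp2 were most alike (Pearson r = 0.96), followed by Sfrp1 and Dkk3 (0.84) and Dkk3 and Wnt5a (0.82). Wnt2 and Wif1 were alike (0.74) and ran opposite to Sfrp1 (-0.83 for Wnt2, -0.64 for Wif1). These correlations are descriptions over 12 libraries that share groups and scaling. Sfrp4 was near 0 with Sfrp1 (0.03) and Wnt2 (0.05).

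Among 12027 other genes with at least 1 mean log2 CPM, those most like Sfrp1 were Pabpc1 (0.99), which binds the poly(A) tail, Nt5dc2 (0.99) and the cell cycle kinase Cdk4 (0.99). Those most like Sfrp2 were the matrix genes Postn (0.97) and Thbs2 (0.96) and the kinase Pak1 (0.95). For Wnt2 they were Fam49a (0.95), Pthlh (0.94), which encodes parathyroid hormone-related protein, and the bone morphogenetic protein Bmp4 (0.94). For Wif1 they were Numb (0.97), Arhgef3 (0.97) and Naxd (0.96), for Dkk3 Eogt (0.97), Dnmt1 (0.96) and Fam207a (0.96), and for Wnt5a Sipa1l3 (0.92), Ammecr1 (0.91) and Tnks1bp1 (0.90). Genes like Dkk2 included Ccdc167 (0.89) and the osteoblast factor Sp7 (0.88). Sfrp4 was nearest to Arhgef10 (0.94), Tmem196 (0.84) and Arhgef11 (0.83), and Frzb to Kcnc2 (0.89), Grip2 (0.88) and Zfp626 (0.87).

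Markers of the cells of the joint moved with some of these genes. The mean log2 CPM of the skeletal muscle markers ran opposite to Sfrp1 (r = -0.95 over 12 libraries) and Sfrp2 (-0.85) and with Wnt2 (0.75), and that of the lining fibroblast markers did likewise (-0.88, -0.82 and 0.80). Endothelial markers ran with Sfrp1 (0.82) and Sfrp2 (0.80), and sublining fibroblast markers were near 0 with Sfrp1 (0.06) and Sfrp2 (0.04). Their 6 genes summed to 543 to 628 CPM in naive, 460 to 595 in control and 572 to 685 in anti-SIRPa joints. The 5 lining markers summed to 7840 to 10652, 6126 to 7836 and 7183 to 11055 CPM. The median of the 5 was -0.63 against naive and 0.66 for anti-SIRPa against control antibody. Osteoblast and osteocyte markers summed to 80.9 to 133, 108 to 353 and 126 to 177 CPM. Against naive these markers ran from -0.49 (Phex) to 1.80 (Ibsp, the one with most counts), with a median of 0.25. Between the antibodies Ibsp was at -1.35, not called, and Phex rose by 1.54. Macrophage markers summed to 317 to 347, 269 to 574 and 347 to 484 CPM. The 269 was control 1, below every naive mouse, and controls 2, 3 and 4 had 562, 552 and 574. Over all 14 marker lists, 6 of 80 tested markers rose and 9 fell against naive, beside 5.87% and 4.45% of all genes. Those that fell were 3 of 8 chondrocyte markers, 2 of 6 sublining and 2 of 5 lining fibroblast markers, 1 of 8 muscle and 1 of 5 pericyte markers. Those that rose were 2 of 5 macrophage, 2 of 4 neutrophil, 1 of 8 chondrocyte and 1 of 8 osteoblast markers. With anti-SIRPa against control antibody 12 of the 80 were higher and 0 lower, beside 1.59% and 1.7% of all genes. The 12 were 2 each of the sublining, lining, chondrocyte and adipocyte lists and 1 each of the osteoblast, pericyte, Schwann cell and erythroid lists. The part of these cells in the values of Sfrp1, Sfrp2 and Wnt2 was not tested.

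The rest of the pathway was described with 9 lists of 89 other genes, of which 80 passed the filter. In control arthritis against naive joints 5 were called higher and 10 lower, beside 5.87% and 4.45% of all genes, with a median of -0.19 against 0.03 for all genes.

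Among 11 tested other Wnt ligands, 3 fell and 0 rose (median -0.45). The median is the value of Wnt3, which had 0 to 3.29 CPM in naive mice and an interval of -3.15 to 2.26. Wnt10b, which promotes bone formation, fell from 6.57, 6.74, 6.12 and 9.81 CPM in naive mice to 3.56, 3.68, 2.87 and 4.04 in controls (-1.05 ± 0.20, edgeR adjusted p = 0.0115). Its groups did not overlap, as in 12.5% of all genes tested. Wnt11 (-1.02 ± 0.28, edgeR adjusted p = 0.0350) and Wnt9a (-0.42 ± 0.12, edgeR adjusted p = 0.0431) also fell. None of the 11 was called with anti-SIRPa against control antibody.

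Of 6 tested other inhibitors, 2 fell and 0 rose. Sfrp5, a relative of Sfrp1 and Sfrp2, moved in the direction opposite to theirs. It stood at 12.8, 15.9, 20.04 and 15.2 CPM in naive mice, at 11.99, 6.70, 5.97 and 6.07 in controls and at 17.0, 18.1, 17.4 and 11.2 with anti-SIRPa. Every control lay below every naive mouse, in a comparison where groups did not overlap in 12.5% of all genes tested. It fell by 1.06 ± 0.24 in arthritis (edgeR adjusted p = 0.0201) and rose by 1.05 ± 0.24 with anti-SIRPa (edgeR adjusted p = 0.0385), a comparison in which anti-SIRPa 4 lay below control 1. Kremen1, a receptor of Dickkopf proteins, fell by 0.62 ± 0.10 (edgeR adjusted p = 0.00620).

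All 16 receptors were tested, of which 1 rose and 3 fell. Fzd1 rose from 26.7 to 33.4 CPM in naive to 34.8 to 88.9 in controls (1.16 ± 0.22, edgeR adjusted p = 0.0115) and fell by 0.93 ± 0.22 with anti-SIRPa (edgeR adjusted p = 0.0423). Control 1, at 34.8 CPM, lay within the anti-SIRPa range of 30.3 to 38.7. Fzd9 (-1.32 ± 0.33), Fzd10 (-0.65 ± 0.17) and Fzd7 (-0.54 ± 0.14) were the receptors that fell. The Lrp co-receptors that Dickkopf proteins bind, Lrp5 and Lrp6, were not called.

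Of 8 tested target genes, 3 rose and 0 fell, with a median of -0.05. Myc, a growth regulator, rose from 12.3 to 25.0 CPM in naive to 29.8 to 69.2 in controls (1.48 ± 0.28, edgeR adjusted p = 0.0116) and fell by 1.52 ± 0.28 with anti-SIRPa (edgeR adjusted p = 0.0265). The matricellular genes Ccn4 (2.37 ± 0.48) and Ccn5 (1.64 ± 0.32) also rose, and Ccn5 fell by 1.63 ± 0.32 with anti-SIRPa (edgeR adjusted p = 0.0314). Control 1 lay within the naive range for both, at 4.47 CPM of Ccn4 and 36.1 of Ccn5. For Ccn5 it also lay within the anti-SIRPa range. Axin2, a feedback inhibitor widely used as a readout of beta-catenin signalling, was not called (-0.42, edgeR adjusted p = 0.200), nor was Lef1 (-0.94, edgeR adjusted p = 0.130).

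Of 9 genes of the R-spondin axis, which controls the level of Wnt receptors at the surface, none was called in arthritis against naive joints. With anti-SIRPa, Lgr5, a receptor of R-spondins, stood at 0.646, 0.773, 1.011 and 0.849 CPM, or only 11, 12, 14 and 15 counts. These values lay below all controls (2.07 to 3.42 CPM) and below all naive mice (1.1497 to 2.31). Groups did not overlap in 10% of all genes tested against control antibody and in 4.89% against naive. The difference from naive, -1.10 ± 0.33, was not called (edgeR adjusted p = 0.9999). The change against control antibody was -1.63 ± 0.33 (edgeR adjusted p = 0.0295). Csnk1e, a kinase that acts on Dishevelled, fell by 0.63 ± 0.14 in arthritis among 11 cytoplasmic genes, and 0 of 8 nuclear genes and 0 of 2 secretion genes were called. Of 9 planar polarity genes, Prickle1 rose (0.73 ± 0.19) and Daam2 fell (-0.46 ± 0.11). With anti-SIRPa against control antibody 4 of the 80 pathway genes were lower and 1 higher, with a median of -0.04, beside 1.7% and 1.59% of all genes.

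Kremen1, Myc, Wnt10b, Ccn5 and Fzd1 stayed called against naive whichever 1 mouse was left out. Without controls 2 and 4 together these 5 were not called against naive (edgeR adjusted p from 0.104 to 0.151). That fit called 0 of the 80 pathway genes in either comparison, beside 1 gene of all against naive. Without naive 4 and anti-SIRPa 2, 1 of the 80 was called lower and 0 higher against naive, beside 100 and 66 of all genes. Between the antibodies that fit called 0 of the 80. Ccn4 was lost without naive 4 (edgeR adjusted p = 0.0517), Sfrp5 without naive 3 or control 2, 3 or 4, Csnk1e without naive 4 or control 2, 3 or 4, and Daam2 without naive 1, 2 or 3 or control 3. Wnt11 was lost without naive 1, 3 or 4 or control 3 or 4, Fzd9 without naive 1, 2, 3 or 4 or control 3, and Prickle1 without naive 1, 2 or 4 or control 2, 3 or 4. Fzd7 and Fzd10 were lost without any naive mouse or control 2, 3 or 4, and Wnt9a also without anti-SIRPa 1 or 2. For these 9 the edgeR adjusted p values of the lost calls ran from 0.0501 to 0.0945. All 5 pathway calls for anti-SIRPa against control antibody, Sfrp5, Lgr5, Myc, Ccn5 and Fzd1, were lost without control 2, 3 or 4 or anti-SIRPa 1, 2 or 3 and, for Fzd1, without any of the naive mice or anti-SIRPa 4. Sfrp5 was also lost without naive 1, 2 or 3, Lgr5 without naive 2 and Ccn5 without naive 1 (edgeR adjusted p from 0.0502 to 0.130).

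**Figure D4:**
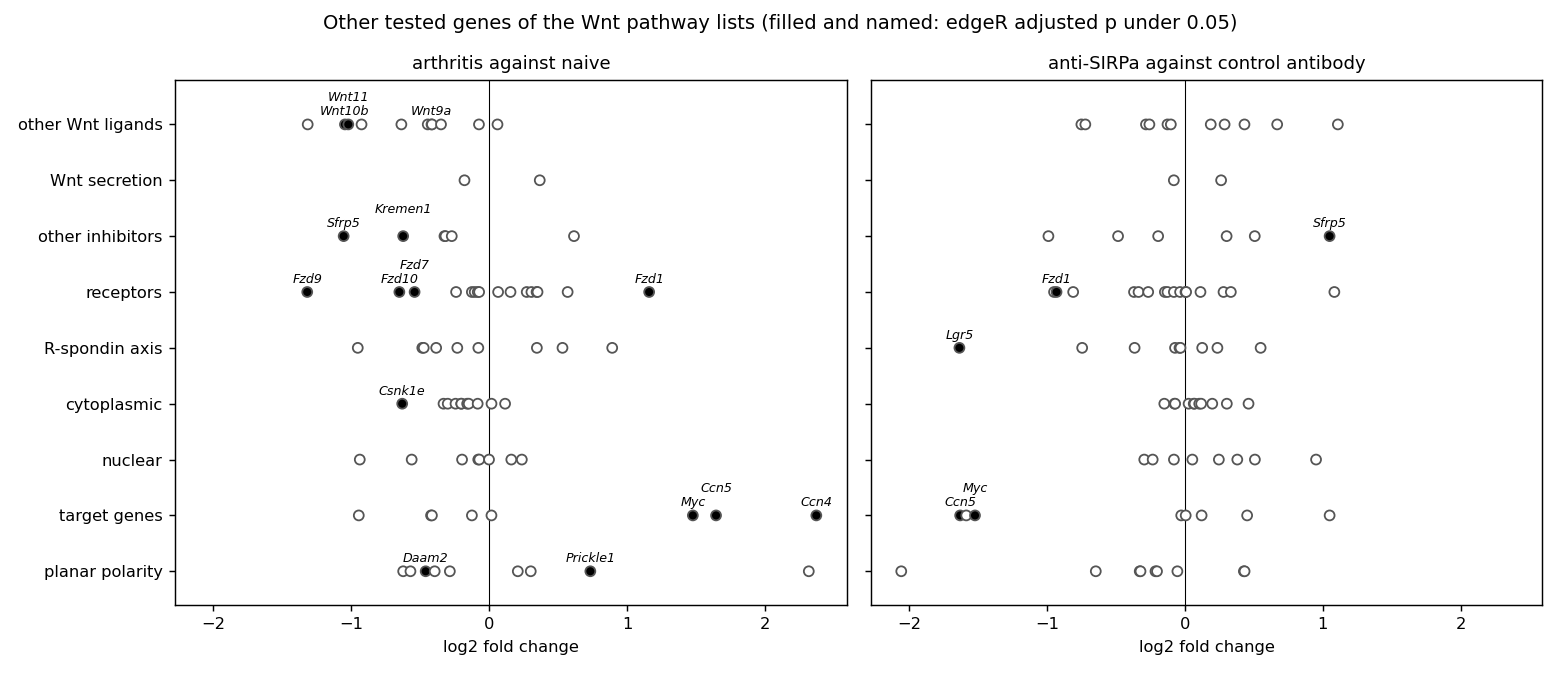
Log2 fold change (horizontal axis) of the 80 other tested Wnt pathway genes by list (vertical axis), for arthritis against naive joints and for anti-SIRPa against control antibody; filled, named points passed an edgeR adjusted p of 0.05. Sfrp5 lies at -1.06 and 1.05 in the 2 comparisons, and Myc at 1.48 and -1.52.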

How the data were processed

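Total RNA of 12 paw joint libraries went into strand-specific libraries (TruSeq), as the labels' protocols state. Counts were deposited as whole numbers for each Ensembl identifier, without normalization by the authors. The build is GRCm38, per the submitters' processing notes. The aligner, counting program and strand setting were not given in the sources used here. The 12 files of single samples were identical in value to the series table.

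Symbols and exon lengths (union of all exons) came from GENCODE M21. Genes were filtered with filterByExpr, which left 16674, scaled by TMM and fitted with the quasi-likelihood model of edgeR 4.0.16 (R 4.3.3) to all 12 libraries with 1 coefficient per group. Adjusted p values are Benjamini-Hochberg values over the 16674 genes, with a threshold of 0.05. The SE is the fold change divided by the root of F, and 95% intervals use the moderated degrees of freedom. CPM are TMM-scaled, and log2 CPM have a prior count of 2. A gene at 0 is limited by 3 counts; this floor covers counting error only. The fit was tested on simulated counts, drawn independently for each gene. These held no differences in tissue content between libraries, so the test does not bear on calls that depend on such differences. DESeq2 1.42.0, limma-voom (limma 3.58.1), other scalings and filters, 2-group fits, a replicate block and fits without libraries were the alternatives.

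The members and lists were chosen with earlier results of these data known. Named were all members, every pathway gene called in a comparison, and per member the 3 genes of highest Pearson correlation, of which 1 is not reported here; Matn3, Gm26917, Gm26771, Gm2670, Lrp5, Lrp6, Axin2 and Lef1 were named after their values were seen.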

Additional observations from a re-analysis of the deposited data

Results flagged for a closer look

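In 27 groups of 4 values (9 genes in 3 groups) 2 held a mouse that stood apart from the other 3 by Dixon's criterion, which chance alone meets in about 1 group in 20. Dkk3 was 46.0 CPM in anti-SIRPa 4, against 36.2 to 37.7 in the other anti-SIRPa mice. Frzb was 6.40 CPM in naive 3, against 3.60 to 3.90 in the other naive mice. Neither gene was called in any comparison, and no cause was tested.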

How the results depend on the processing

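Under the 24 alternatives per member, Sfrp1, Sfrp2, Wif1, Wnt2, Dkk3 and Frzb kept their sign against naive and between the antibodies. No call reversed, and Dkk3 and Frzb were never called. Sfrp4, Dkk2 and Wnt5a, never called in edgeR, changed sign in 1 or more. Calls were less stable. Arthritis against naive had 1721 genes called: 412 to 4694 when 1 mouse was left out, 435 with 2 groups in the fit, 2905 with DESeq2, 166 without naive 4 and anti-SIRPa 2, and 1 without controls 2 and 4. Members called were 3: 0 to 4 with 1 mouse left out, 1 with no filter, 1 with 2 groups, 1 with limma-voom, and 0 without either pair of libraries. Anti-SIRPa against control antibody had 548: 0 to 3976, 0 with 2 groups, 1892 with DESeq2, 345 with limma-voom and 0 without either pair. Members called were 2: 0 to 4, 1 with library totals, 4 with DESeq2, and 0 with 2 groups, limma-voom or without either pair. The highest counts came without control 1. Anti-SIRPa against naive had 0, but 4 with no filter and 20 with DESeq2. The causes were not tested.

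Library totals in place of TMM moved the median of all genes in arthritis against naive from 0.03 to 0.16, and the calls from 979 higher and 742 lower to 1283 and 540; between the antibodies they moved from 265 and 283 to 337 and 172. With the replicate block, arthritis against naive had 735 genes and 1 member called and anti-SIRPa against control antibody 78 and 0. The numbers only name animals: same-numbered libraries of different groups correlated in their deviations from -0.80 to 0.21, over 0.1 in 1 of 12 pairs, so that not every library was most like its own number. Depth limits Wnt2, with 2 to 82 counts, and Dkk1, with 0 to 5.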
